A study of Mus musculus with 2 samples.

Results

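The SOX transcription factor genes examined here were Sox1, Sox2, Sox3, Sox4, Sox5, Sox6, Sox8, Sox9, Sox10 and Sox11, and their members are the open chromatin regions around these 10 genes. A region belonged to a gene when the summit of its ATAC-seq peak lay within the annotated gene body or the 100 kb on either side of it, on mouse build mm10. This rule took 271 of 117165 peaks in the control library and 259 of 124935 peaks in the Ngn3-OE library. ATAC-seq marks open DNA by the cuts of the Tn5 transposase. Late retinal progenitor cells (RPCs) of postnatal day 1 (P1) pups were electroporated in vivo with a GFP-labelling control plasmid or with an Ngn3 (gene symbol Neurog3) overexpression plasmid, and GFP-labelled cells were sorted from the retina at day 2 after electroporation. Each group had 1 library of 50000 sorted cells, so no comparison below has a replicate check, no p-value is given, and every difference describes these libraries. The number of pups behind a library, the mouse strain and the promoter of the plasmid are not given in the sources used here.

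SOX proteins bind DNA through an HMG box, which sits in the minor groove at a short ATTGT-type core and bends the helix. The SOXB1 genes Sox1, Sox2 and Sox3 are known for keeping neural progenitors undifferentiated, and Sox2 is a standard marker of RPCs. Of the SOXC group, Sox4 and Sox11 are known for neuronal differentiation, including that of retinal ganglion cells. Sox5 and Sox6 belong to the SOXD group, whose proteins lack an activation domain of their own and act with SOXE partners. The SOXE genes Sox8, Sox9 and Sox10 are known for glial and neural crest lineages, and Sox9 is expressed in RPCs and Müller glia.

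The sequences below carry the patterns described in the following paragraphs. They are 201-base windows of the mm10 reference sequence centred on a summit, and they were taken from the strongest one-library peaks and from the peak pairs with the largest ratios because each holds a searched motif. They are a selection: among the strongest one-library peaks, control-only peaks of Sox5 and Sox10 and an Ngn3-OE-only peak of Sox6 also hold a SOX motif, and an Ngn3-OE-only peak of Sox2 holds an E-box. Capitals mark the SOX motif, CCATTGT or CCTTTGT on either strand (ACAATGG or ACAAAGG when read on the other strand), and the E-box CATCTG or its reverse complement CAGATG, the kind of site that proneural bHLH factors such as Ngn3 bind. A match is a description of the letters and not evidence of binding. The first 3 windows were peaks of the control library only, the next 3 were lower in Ngn3-OE, and the last was higher in Ngn3-OE.
Sox2 control-only peak, chr3:34653946-34654146, plus strand: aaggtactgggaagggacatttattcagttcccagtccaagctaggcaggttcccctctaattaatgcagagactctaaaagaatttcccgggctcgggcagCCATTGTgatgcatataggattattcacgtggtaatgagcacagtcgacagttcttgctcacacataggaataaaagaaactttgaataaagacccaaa
Sox8 control-only peak, chr17:25577330-25577530, plus strand: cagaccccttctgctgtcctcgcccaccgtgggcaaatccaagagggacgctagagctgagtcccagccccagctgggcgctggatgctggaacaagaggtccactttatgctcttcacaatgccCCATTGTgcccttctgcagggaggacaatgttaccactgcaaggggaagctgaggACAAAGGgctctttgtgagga
Sox9 control-only peak, chr11:112811605-112811805, plus strand: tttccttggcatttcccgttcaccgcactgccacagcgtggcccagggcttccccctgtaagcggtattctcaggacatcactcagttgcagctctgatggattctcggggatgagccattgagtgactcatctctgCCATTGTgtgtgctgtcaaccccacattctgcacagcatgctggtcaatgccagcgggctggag
Sox1 lower pair, chr8:12432658-12432858, plus strand: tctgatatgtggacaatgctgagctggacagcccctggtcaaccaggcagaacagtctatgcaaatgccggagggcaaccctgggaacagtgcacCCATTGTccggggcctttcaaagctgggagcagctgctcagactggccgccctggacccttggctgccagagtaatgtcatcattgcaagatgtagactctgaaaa
Sox4 lower pair, chr13:29015726-29015926, plus strand: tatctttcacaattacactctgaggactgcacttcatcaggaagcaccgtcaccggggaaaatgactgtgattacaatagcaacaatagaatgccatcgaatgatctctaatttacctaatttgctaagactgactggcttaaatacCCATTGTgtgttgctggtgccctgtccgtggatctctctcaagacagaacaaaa
Sox3 lower pair, chrX:60825603-60825803, plus strand: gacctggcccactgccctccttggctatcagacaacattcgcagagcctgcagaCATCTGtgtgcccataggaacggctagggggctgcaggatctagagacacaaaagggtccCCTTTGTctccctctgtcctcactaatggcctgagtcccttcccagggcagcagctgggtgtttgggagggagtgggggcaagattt
Sox8 higher pair, chr17:25605819-25606019, plus strand: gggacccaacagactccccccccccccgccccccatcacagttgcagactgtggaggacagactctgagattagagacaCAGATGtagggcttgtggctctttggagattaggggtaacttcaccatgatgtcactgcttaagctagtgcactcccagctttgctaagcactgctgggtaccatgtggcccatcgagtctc
The Sox2 window lies 3.6 kb past the Sox2 start site in an intron of the noncoding gene Sox2ot, and its motif begins 2 bp from the summit. The Sox8 window lies 6.7 kb upstream of Sox8 and holds 2 SOX matches, and the nearest protein-coding start site there is that of Lmf1. The Sox9 window is intergenic, 29.5 kb past the Sox9 start site. The Sox1 window lies in an exon of the noncoding gene Sox1ot, 37.5 kb past the Sox1 start site, and the Sox4 window in an intron of A330102I10Rik, 62.1 kb upstream of Sox4. The Sox3 window, intergenic and 67.7 kb past the Sox3 start site, holds a SOX match and an E-box.

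The overexpressed gene marked the libraries as labelled. No peak lay over Neurog3 in control, and 1 peak with 1591 tags at its summit lay over it in Ngn3-OE, against 326 tags at the next-highest summit of that list. Whether these tags came from the plasmid or from the gene in the genome was not tested. A tag is a read end as counted in the peak call, and the number of tags over a summit, whose extension length is not given in the sources used here, is called the pileup. The median pileup was 9 tags in both libraries, and the lowest local background was 0.2615 tags in control and 0.2571 in Ngn3-OE, a ratio of 0.9834 by which all ratios between the libraries were divided. The 7 RPC genes reported here (Pax6, Rax, Lhx2, Six3, Six6, Hes1 and Ccnd1) each had a promoter peak in both libraries, with 25 to 91 tags in control and 19 to 94 in Ngn3-OE. Summed over these genes the pileups were 407 and 369 tags, and Pax6, Lhx2, Six3, Hes1 and Ccnd1, 5 of the 7, had fewer tags in Ngn3-OE. Of 5 microglial genes, P2ry12 alone had a promoter peak, of 8 tags in control and 7 in Ngn3-OE, and the defining genes Csf1r and Cx3cr1 had none. Of 5 endothelial genes, Kdr, Cldn5 and Tek had one in control (summed 53 tags) and Kdr and Cldn5 in Ngn3-OE (summed 38 tags), with Pecam1 and Cdh5 at 0 in both. Of 4 astrocyte genes, Gfap, Pax2 and Aldh1l1 had one in both libraries, with summed pileups of 27 tags in control and 33 in Ngn3-OE. By staining at the same day, the paper reports a smaller share of actively dividing (Ki67-positive) cells among GFP-labelled cells in Ngn3-OE than in control. The part of that difference, of other cell types and of the lower sum over RPC genes in the results below was not tested.

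Around the SOX genes, control peaks without a partner in the other list were more frequent than elsewhere. Peaks of the 2 lists that had at least 1 bp in common were called shared, and the others one-library. In control, 80 of the 271 peaks (29.5%, 95% Wilson interval 24.4 to 35.2) had no partner in Ngn3-OE, where 21.7% of all control peaks had none. The difference from the peaks outside the windows was 7.84 percentage points, with a Newcombe interval of 2.72 to 13.5. In Ngn3-OE, 62 of the 259 peaks (23.9%, interval 19.1 to 29.5) had no partner in control, near the 26.6% of all Ngn3-OE peaks, with a difference of -2.7 points (-7.5 to 2.86). All intervals given are for counting error alone, and peaks that lie close together are not independent of each other. The interval of this excess reached 0 without Sox5 and Sox6, the longest genes of the list, which together held 100 of the 271 control peaks. The remaining 8 genes had 43 control-only peaks among 171 (25.1%), a difference from other peaks of 3.45 points with an interval of -2.46 to 10.5. By gene the control-only shares ranged from 10.3% for Sox10 and 16% for Sox1 to 37% for both Sox5 and Sox6 and 40% for Sox11. Sox11, Sox4 (36.8%) and Sox9 (35.3%) had nearly as many or as many Ngn3-OE-only peaks, with 4 and 3, 7 and 7, and 6 and 5. Most one-library peaks were weak, and 18 of the control-only and 13 of the Ngn3-OE-only peaks reached a −log10 q of 5.

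**Figure D1:**
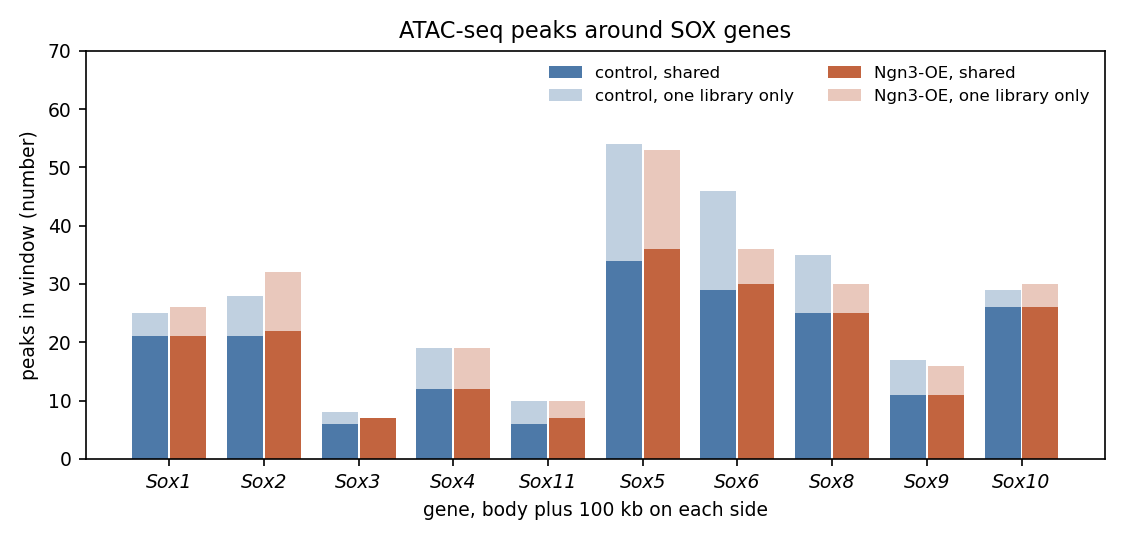
Number of ATAC-seq peaks (vertical axis) in the window of each of the 10 SOX genes, control in blue and Ngn3-OE in orange, 1 library each. Dark parts of the bars are shared peaks and pale parts are peaks of that library only; Sox6 had 17 control-only and 6 Ngn3-OE-only peaks, and Sox2 had 7 and 10.

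Since the windows differ in length, the numbers of peaks were compared per length. Per 100 kb of window, Sox8 had the highest density in control and Sox2 in Ngn3-OE: Sox8 had 17.1 peaks in control and 14.6 in Ngn3-OE, and Sox2 had 13.9 and 15.8. Sox10 had 13.8 and 14.3, and Sox1 had 12.2 and 12.7. The lowest densities were those of Sox3, with 3.96 in control and 3.46 in Ngn3-OE. Sox5 had 4.68 and 4.59, Sox11 had 4.8 in both, and Sox6 had 5.99 and 4.69. The Sox8 and Sox10 windows are rich in genes, and in them the SOX gene was the nearest protein-coding start site for only 7 of 35 and 6 of 29 control peaks. For Sox2, Sox3, Sox4, Sox9 and Sox11 it was the nearest for every peak of both libraries.

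Among shared regions, pairs lower in Ngn3-OE were more frequent around the SOX genes than elsewhere. A control peak and an Ngn3-OE peak formed a pair when each was the other's strongest overlap. There were 190 such pairs around the SOX genes, and in 105 of them the 2 pileups summed to at least 20 tags, the minimum set for a call. Unless another minimum is named, all later counts of lower and higher pairs are among pairs with this minimum. Summed tags and ratios of sums are over all pairs. Of these 105, 24 (22.9%, interval 15.9 to 31.8) were at least 1.5-fold lower in Ngn3-OE, where 10.3% of all 54136 pairs under the same minimum were. Another 14 (13.3%, interval 8.11 to 21.1) were at least 1.5-fold higher, where 17.8% of all pairs were. The share of lower pairs exceeded that of the pairs outside the windows by 12.6 points (5.62 to 21.5), and the share of higher pairs differed from it by -4.47 points (-9.7 to 3.35). Scaling the libraries so that the median ratio of all pairs was 1 gave 27 lower and 11 higher SOX pairs (71.1% of the calls lower, against 63.2% with the main scaling). Over all pairs that scaling gave 7082 lower and 7170 higher (49.7% of the calls lower, against 36.6%). It lowers every log2 ratio below by 0.105, so that positive values under this size turn negative with it, that of Sox10 included.

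Summed over the 190 pairs, the pileup was 3356 tags in control and 3087 in Ngn3-OE, a log2 ratio of -0.096 (-0.167 to -0.026). Over all 90427 pairs the median log2 ratio was 0.11 and the ratio of sums 0.093, so the SOX pairs lay 0.19 below all pairs on the log2 scale by sums. Their median, -0.0085, lay 0.11 below. Of the SOX pairs, 96 (50.5%) had fewer tags in Ngn3-OE, 14 (7.37%) had equal tags and 80 (42.1%) had more, against 38.4%, 9.28% and 52.4% of all pairs. The quartiles of their log2 ratio were -0.56 and 0.39. In the main setting the ratio of sums was below 0 for 9 of the 10 genes, all but Sox10. Of the 17614 protein-coding genes with at least 5 pairs in such a window, 24.5% were below 0. Most ratios of the 10 genes were small, and in the main setting the interval of Sox9 alone excluded 0. With median scaling those of Sox5 (-0.36 to -0.011), Sox6 (-0.42 to -0.049) and Sox8 (-0.43 to -0.056) did too. Only Sox1, Sox6 and Sox9 kept their sign in all 6 alternative settings, with 7 genes changing sign in at least 1.

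**Figure D2:**
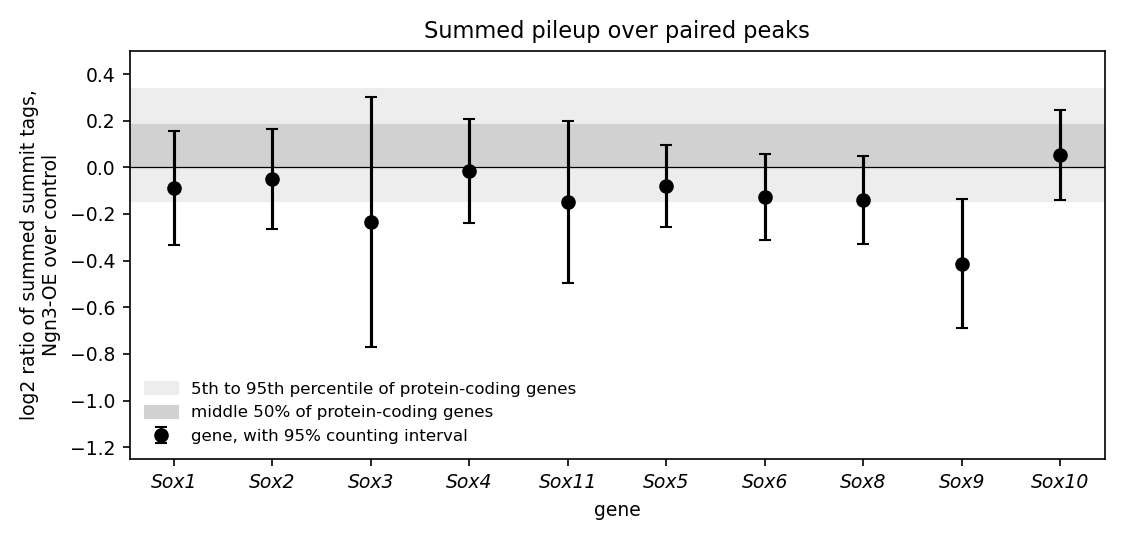
Log2 ratio of summed summit tags, Ngn3-OE over control (vertical axis), over the paired peaks of each SOX gene, with 95% counting intervals and 1 library per group. The dark band holds the middle 50% of protein-coding genes (0.0022 to 0.18) and the pale band their 5th to 95th percentile (-0.14 to 0.34); Sox9 lies lowest, at -0.41.

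Sox9, which encodes a SOXE factor expressed in RPCs and Müller glia, had the lowest ratio of the list in the main setting. Sox8 lay lower with nearest start sites only (-0.49 against -0.41), and Sox3 over 1 kb from any start site (-0.55 against -0.35). In the main setting the 11 Sox9 pairs summed to 245 tags in control and 181 in Ngn3-OE. Their log2 ratio was -0.41 (-0.69 to -0.14), and 0.449% of protein-coding genes had a lower one. The promoter peak, 162 bp upstream of the start site at chr11:112781995-112782239, had 52 tags in control and 32 in Ngn3-OE. A peak in an intron of BC006965, 73.7 kb upstream, had 54 and 30 tags, and an intergenic peak with an E-box 29.0 kb past the start site had 40 and 23. The last of these pairs, 78.7 kb past the start site and with a SOX motif, had 15 and 7 tags. These 4 pairs were the ones past 1.5-fold, all lower in Ngn3-OE, among 8 with enough tags. The other 4 did not pass 1.5-fold. Within the gene there were 13 and 15 tags 2.9 kb and 14 and 14 tags 3.6 kb past the start site, and the pair at 88.1 kb had 24 and 29 tags. The strongest control-only peak, the one printed above, had 16 tags and a −log10 q of 10.8. The strongest Ngn3-OE-only peak lay in the first exon, 220 bp past the start site, with 16 tags and a −log10 q of 8.46. In all, 6 Sox9 peaks were control-only and 5 Ngn3-OE-only.

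Sox8 and Sox10, the other SOXE genes, had ratios whose intervals overlap each other. The 25 pairs around Sox8 summed to 477 tags in control and 426 in Ngn3-OE (log2 ratio -0.14, -0.33 to 0.050), with 5 lower and 2 higher pairs among 14. Among pairs with at least 20 tags, the one with the lowest ratio of all 10 genes lay 8.9 kb past the Sox8 start site, at chr17:25561689-25562044, with 40 tags in control and 9 in Ngn3-OE (log2 ratio -2.13, -3.17 to -1.08). The Sox8 promoter pair had 40 and 31 tags. A higher pair, in an intron of Lmf1 35.2 kb upstream of Sox8, had 19 and 36 tags (log2 ratio 0.95, 0.14 to 1.75), and it is the E-box sequence printed above. The Sox8 value depended on which peaks were assigned to the gene: it was -0.49 for the pairs whose nearest start site was Sox8 and 0.10 for the pairs over 1 kb from any start site. Around Sox10, a gene of neural crest and oligodendrocytes, the 26 pairs summed to 426 and 434 tags (log2 ratio 0.051, -0.14 to 0.24), with 1 higher and no lower pair among 13. The Sox10 value also depended on assignment. It was -0.055 for the pairs whose nearest start site was Sox10 and -0.038 for the pairs over 1 kb from any start site. Sox10 had no promoter peak in control and one of 7 tags in Ngn3-OE, 995 bp upstream and overlapping a control peak. It also had the smallest control-only share, 3 of 29 peaks (10.3%).

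**Figure D3:**
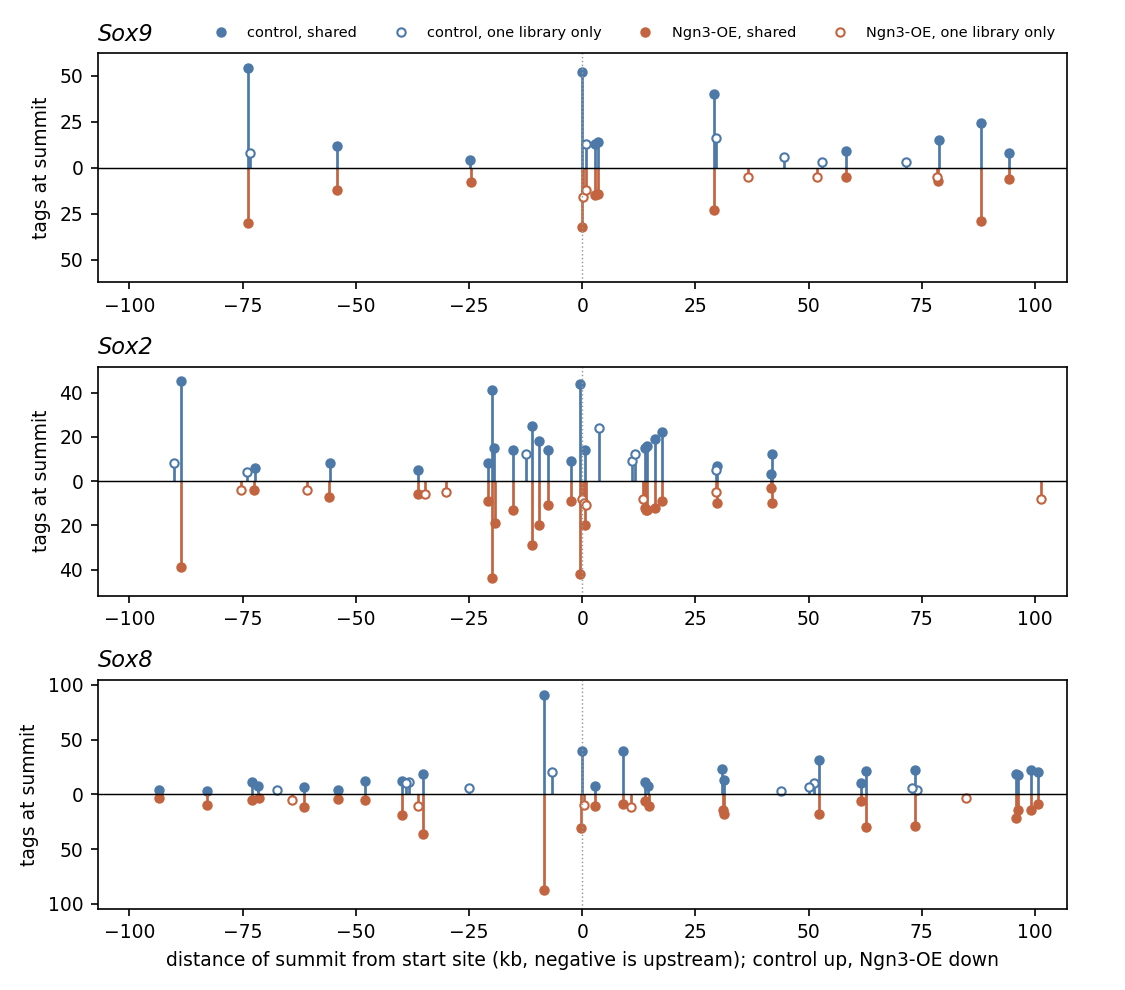
Tags at the summit (vertical axis, control upward in blue and Ngn3-OE downward in orange) against the distance of the summit from the start site in kb (horizontal axis, negative is upstream), for all peaks around Sox9, Sox2 and Sox8. Filled points are shared peaks and open points are peaks of 1 library only; the 3 strongest Sox9 peaks of control, of 54, 52 and 40 tags, stand over 30, 32 and 23 tags in Ngn3-OE, and most Sox2 peaks mirror each other.

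Sox2, the SOXB1 gene that marks RPCs, had similar pileups in the libraries at most of its paired regions. Its 21 pairs summed to 360 tags in control and 342 in Ngn3-OE (log2 ratio -0.050, -0.26 to 0.16). The promoter pair, 505 bp upstream of the start site, had 44 and 42 tags, and the pairs 88.5 kb and 20.0 kb upstream, both with a SOX motif, had 45 and 39 and 41 and 44 tags. The regions that differed most lay past the gene. The peak 3.6 kb past the start site at chr3:34653968-34654110, with 24 tags and a −log10 q of 16, was the strongest control-only peak of the 10 windows. Further on, the pairs at 13.9 kb (15 and 13 tags) and 14.2 kb (16 and 13) did not pass 1.5-fold. The pair at 16.0 kb had 19 and 12 tags and the pair at 17.6 kb had 22 and 9, and these were the only 2 of 14 Sox2 pairs past 1.5-fold, both lower. Sox2 also had 10 Ngn3-OE-only peaks, of which 3 lay within 1 kb of the start site, with 8 to 11 tags.

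Sox1 and Sox3, the other SOXB1 genes, had few pairs with enough tags for a call. Around Sox1, the 21 pairs summed to 279 and 258 tags (log2 ratio -0.089, -0.33 to 0.16), with 2 lower and 2 higher pairs among 8. The lowest of them, in the Sox1ot exon at chr8:12432612-12432882, had 46 and 15 tags (log2 ratio -1.59, -2.43 to -0.75), and the 2 higher ones had 9 and 17 tags each. The Sox1 promoter peak was weak, with 4 tags in control and 8 in Ngn3-OE. Sox3 had 8 peaks in control and 7 in Ngn3-OE, and of its 2 pairs with enough tags 1 was lower. Its 6 pairs summed to 61 and 51 tags (log2 ratio -0.23, -0.77 to 0.30). Its strongest control promoter peak, 84 bp upstream of the start site with 18 tags and a −log10 q of 12.1, had no partner in Ngn3-OE. A second peak, in the coding exon 832 bp past the start site, had 15 and 20 tags. The pair 67.7 kb away at chrX:60825520-60825831 had 29 and 11 tags (log2 ratio -1.37, -2.38 to -0.37).

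Sox4 and Sox11, the SOXC genes of the list, had its strongest promoter peaks, and these were lower in Ngn3-OE by less than 1.5-fold. At the Sox4 promoter there were 94 tags in control and 77 in Ngn3-OE, and at the Sox11 promoter 90 and 68. Sox12, the SOXC gene outside the list, had 77 tags in control and 103 in Ngn3-OE at its promoter. The 12 Sox4 pairs summed to 324 and 315 tags (log2 ratio -0.017, -0.24 to 0.21) and the 6 Sox11 pairs to 142 and 126 (-0.15, -0.49 to 0.20). Of the 2 lower Sox4 pairs, the one at chr13:29015737-29015945 had 18 and 6 tags (log2 ratio -1.56, -2.89 to -0.23), and another less than 1 kb from it had 14 and 6. A Sox4 pair 5.2 kb upstream of the promoter with an E-box was higher, with 24 and 38 tags. Both Sox11 calls were higher pairs, 14.6 kb and 21.4 kb upstream of the gene, with 8 and 12 and 8 and 14 tags. The Sox11 ratio of sums was carried by the promoter, since the pairs over 1 kb from any start site gave 0.75. An Ngn3-OE-only peak in the Sox11 exon had 24 tags and a −log10 q of 10.7.

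Sox5 and Sox6, the SOXD genes of the list, held 37 of the 80 control-only and 23 of the 62 Ngn3-OE-only peaks, and all 17 Ngn3-OE-only peaks of Sox5 lay in introns. Around Sox5, 20 of 54 control peaks and 17 of 53 Ngn3-OE peaks had no partner, and around Sox6, 17 of 46 and 6 of 36. For both genes together the shares were 37% in control (28.2 to 46.8) and 25.8% in Ngn3-OE (17.9 to 35.8). The 33 Sox5 pairs summed to 543 and 505 tags (log2 ratio -0.081, -0.26 to 0.094), with 5 higher and 5 lower among 19. The lowest, at chr6:144312949-144313299, had 32 and 8 tags (log2 ratio -1.98, -3.09 to -0.86), and another intronic pair with a SOX motif and an E-box had 63 and 34. Among pairs with at least 20 tags, the highest ratios of the 10 genes were also in Sox5 introns, 8 and 18 tags at chr6:144472591-144472734 (log2 ratio 1.19, -0.0075 to 2.40) and 38 and 77 tags at chr6:143859620-143859899 (1.04, 0.48 to 1.6). The latter was the strongest Sox5 peak of the Ngn3-OE library. One intronic Ngn3-OE-only peak, at chr6:144621519-144621627, had 18 tags and a −log10 q of 25.4, the highest of any one-library peak of the 10 windows. The strongest control-only peak of Sox5, with a SOX motif, had 10 tags and a −log10 q of 11.4. At the Sox5 promoter peak there were 46 and 49 tags.

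Around Sox6 the 29 pairs summed to 499 and 449 tags (log2 ratio -0.13, -0.31 to 0.056), with 1 higher and 3 lower among 14. The strongest Sox6 pair, with 101 and 104 tags, lay in the neighbouring gene 1110004F10Rik. The promoter peak of Sox6, 917 bp upstream of a start site, was the higher pair, with 9 and 15 tags. A weaker control promoter peak, 58 bp upstream of another start site and with a SOX motif, had 8 tags and no partner in Ngn3-OE. An Ngn3-OE promoter peak of 7 tags, 323 bp past a start site, had none in control. Of the lower pairs, those in introns had 23 and 10 and 16 and 9 tags, and an intergenic one with a SOX motif past the gene had 17 and 8.

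The pairs were also counted by their place in the window, with no test of the shares between places and no shares by place over all pairs. Lower and higher pairs are counted among those with at least 20 tags, and tags and ratios are summed over all SOX pairs of a place. Of the 56 pairs downstream of the genes, 31 had at least 20 tags. The summed tags of all 56 were 911 in control and 751 in Ngn3-OE (log2 ratio -0.25, -0.39 to -0.12). Of the 31, 12 were lower and 2 higher. Of these 12, 5 lay in the Sox8 window, and 3 of the 5 had Tekt4 or Sstr5 as the nearest start site. Upstream, 5 of 35 pairs were lower and 6 higher, with 1197 and 1222 tags (0.054, -0.061 to 0.17). Within gene bodies 6 of 29 were lower and 5 higher (-0.13, -0.28 to 0.010), and at promoters 1 of 10 was lower and 1 higher (-0.15, -0.34 to 0.047), intervals that overlap those of both other places. Pairs whose nearest protein-coding start site was the SOX gene gave -0.15 (-0.23 to -0.062), with 19 of 76 lower, and those nearest to another gene gave 0.017 (-0.11 to 0.14), with 5 of 29 lower. Regions of the SOX windows were otherwise much like the rest of the list, with a median of 9 tags and with 78.6% of control summits over 1 kb from any start site, against 76.3% elsewhere. Their GC content within 100 bp of the summit was higher, with medians of 53.7% in control and 51.7% elsewhere.

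The SOX motif was more frequent in regions around the SOX genes than elsewhere. Shared peaks were counted in the control list, at the control summit. The motif lay within 100 bp of the summit of 32 of 191 shared peaks (16.8%, 12.1 to 22.7). Of other shared peaks 7.83% held it, a difference of 8.93 points (4.3 to 14.9). Among peaks over 1 kb from any start site the shares were 19.7% and 9.05%. Without Sox5 and Sox6 the first share was 12.5%, and the difference of 4.66 points had an interval reaching down to 0.00092. Among control-only peaks 15 of 80 (18.8%) held the motif, against 12.2% of other control-only peaks (difference 6.52 points, -0.538 to 16.4). Among Ngn3-OE-only peaks 5 of 62 (8.06%) did, against 6.64%. The E-box was in 36 of 191 shared peaks (18.8%) against 21.6% elsewhere, a difference of -2.77 points (-7.69 to 3.37). It was in 19 of 80 control-only peaks (23.8%) against 20.1%, and in 14 of 62 Ngn3-OE-only peaks (22.6%) against 25.3%, differences whose intervals also included 0.

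**Figure D4:**
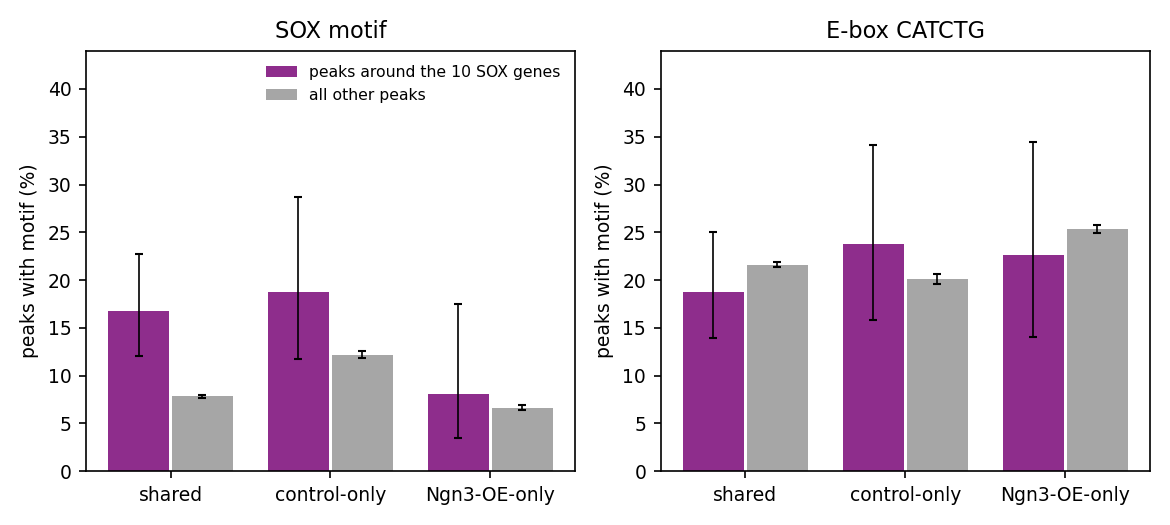
Percent of peaks (vertical axis) with a SOX motif (left) or the E-box CATCTG (right) within 100 bp of the summit, with 95% Wilson intervals. The classes are shared peaks of the control list, control-only peaks and Ngn3-OE-only peaks. Purple bars are peaks around the 10 SOX genes and grey bars all other peaks; the SOX motif was in 16.8% of shared peaks around SOX genes and 7.83% of the others, and the E-box in 18.8% and 21.6%.

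Pairs with the motif were lower more often than pairs without it. The motifs of a pair were read at its control summit only. Of the 20 pairs with a SOX motif and enough tags, 9 (45%) were lower in Ngn3-OE and 0 higher (all pairs with the motif, 25.5% and 14.3%). Of the 85 pairs without it and with enough tags, 15 (17.6%) were lower and 14 (16.5%) higher (all pairs without it, 9.02% and 18.1%). The shares of lower pairs differed by 27.4 points (5.97 to 49.2) and those of higher pairs by -16.5 points (-25.8 to 0.866). Over 1 kb from any start site, 47.1% of the SOX pairs with the motif were lower against 29.2% of other pairs with it, a difference of 17.8 points whose interval, -3.14 to 39.8, included 0. In summed tags the SOX pairs with the motif gave a log2 ratio of -0.45 (-0.62 to -0.29) and those without -0.016 (-0.094 to 0.062), against -0.096 and 0.11 over all pairs. Of the 36 SOX pairs with an E-box, 20 had enough tags, and of these 4 were lower and 4 higher. Of the 154 without it, 85 had enough tags, and of these 20 were lower and 10 higher. Over all pairs the shares were 9.29% lower and 25.1% higher with an E-box, and 10.5% and 16% without.

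**Figure D5:**
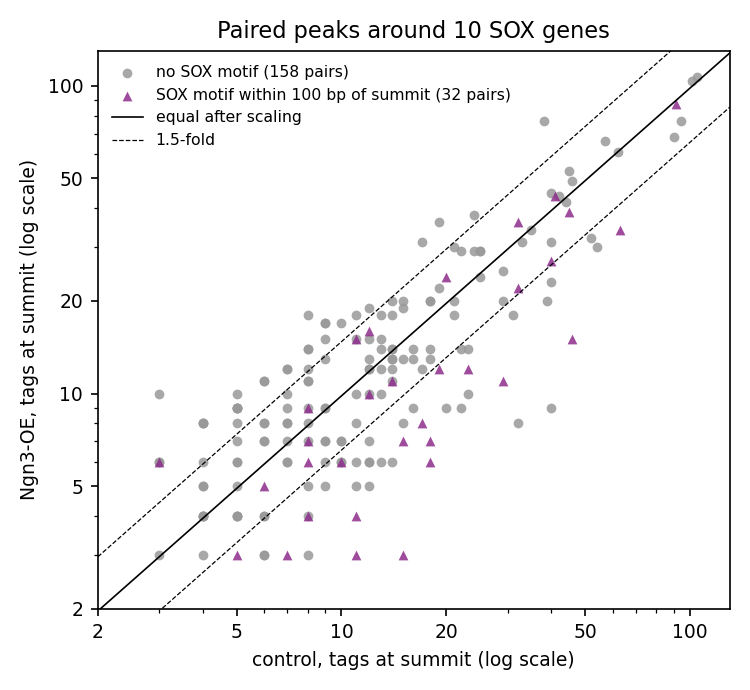
Tags at the summit in Ngn3-OE (vertical axis, log scale) against control (horizontal axis, log scale) for the 190 paired peaks around the 10 SOX genes, 1 library per group. Triangles are the 32 pairs with a SOX motif within 100 bp of the control summit and circles the other 158. No triangle with at least 20 tags in all lies above the upper 1.5-fold line.

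Pairs with at least 20 tags were also counted by group, over the 10 listed genes only. The lower and higher pairs numbered 5 and 2 of 24 for SOXB1, 2 and 3 of 13 for SOXC, 8 and 6 of 33 for SOXD, and 9 and 3 of 35 for SOXE. The log2 ratios of sums were -0.081 (-0.23 to 0.073), -0.055 (-0.24 to 0.13), -0.10 (-0.23 to 0.024) and -0.12 (-0.24 to 0.0040) in the same order, and these intervals overlap each other. Sox12 (SOXC) and Sox13 (SOXD) are not in these sums, and their own ratios were 0.18 (0.028 to 0.33) and -0.16 (-0.43 to 0.12). The remaining SOX genes, Sox7, Sox12, Sox13, Sox14, Sox15, Sox17, Sox18, Sox21, Sox30 and Sry, had 183 peaks in control and 193 in Ngn3-OE by the same rule. Sry had none. Their control-only share was 19.7% (14.6 to 26.0) and their Ngn3-OE-only share 24.4% (18.8 to 30.9). Of their 143 pairs, 99 had at least 20 tags. Of these 99, 10 (10.1%) were lower and 19 (19.2%) higher, near the 10.3% and 17.8% of all pairs under that minimum. The summed ratio of the 143 pairs was 0.12 (0.049 to 0.19), against -0.096 for the 10 genes described here. The 2 sets differ in assignment: the SOX gene was the nearest protein-coding start site for 51 of these 183 control peaks, against 197 of 271 around the 10 genes. The part of assignment in the difference was not tested. Among the remaining SOX genes Sox14, a SOXB2 gene, had 3 of 5 pairs lower and 127 tags in control against 79 in Ngn3-OE (log2 ratio -0.66, -1.07 to -0.26). Sox13 and Sox17 (-0.063) were also below 0.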

How the data were processed

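ATAC-seq peak lists of 2 libraries, control and Ngn3-OE, were used, grouped by sample title. Per the study's methods and the submitters' processing notes, the authors trimmed reads with Trimmomatic, aligned them to mm10 with Bowtie2, removed duplicates (Picard), mitochondrial reads (SAMtools) and blacklisted regions (bedtools), kept fragments of at most 120 bp, shifted read ends by 4 and 5 bp for the Tn5 cut (deepTools) and called peaks per library with MACS2 at a q-value limit of 0.05. The fragment limit leaves out nucleosomal DNA. The deposited lists give an integer score, a fold enrichment ratio at the summit over local background, the −log10 p and −log10 q values, and the summit offset from the peak start. None is scaled between libraries, and sequencing depth is not given by the lists.

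Lines with equal intervals were merged, keeping the summit with the highest −log10 q, which left 117165 of 128853 lines in control and 124935 of 136761 in Ngn3-OE, after 159 and 150 lines outside the 21 chromosomes were dropped. The whole-number pileup at each summit and its background were solved from the deposited fold enrichment and −log10 p by the Poisson formula of MACS2, and the residuals were at most 0.00068 (control) and 0.0019 (Ngn3-OE). In 4822 and 816 summits more than 1 whole number came within the tolerance of 0.002, and the closest was used. The solver was tested on simulated data. Gene bodies and start sites came from GENCODE M21 and bases from the GRCm38 reference, the same build as mm10. Ratios were divided by the ratio of the lowest backgrounds, calls needed a 1.5-fold difference and a pileup sum of 20 tags, and intervals are at 95% (Wilson, Newcombe, or normal from the counts). Python 3.11.15, numpy 2.4.6, pandas 2.3.3, scipy 1.17.1 and samtools 1.23.1 were used.

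For each of the 10 genes the strongest promoter peak (within 1 kb of a start site) and the strongest one-library peaks by −log10 q were to be named, with the 5 highest and 5 lowest pairs overall. Other pairs named were chosen after their values were seen. The genes, lists and tests were chosen with earlier results of these data known. Alternatives were a −log10 q of at least 5, flanks of 50 and 200 kb, nearest start site only, an overlap of 50%, the 50000 strongest peaks, median scaling, a sum of 40 tags, a fold of 2, motif windows of 50 and 250 bp, and leaving out Sox5 and Sox6. Peaks over 1 kb from any start site were added after seeing the data. One RPC marker gene of the fixed list is not reported here.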

Additional observations from a re-analysis of the deposited data

How the results depend on the processing

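No paired analysis was possible because each group had 1 library, and no replicate could be left out. The summed ratio over the 10 genes (-0.20 to -0.068) and the ratio of one-library counts (-0.93 to -0.085) stayed below 0 in every setting tried. The interval of the first reached 0.0082 at a −log10 q of 5, and that of the second included 0 in the main setting (-0.85 to 0.11) and in 7 of 8 alternatives. The median ratio of the pairs changed sign in 2 of 7, with a highest value of 0.024. The excess of lower pairs over pairs outside the windows lay between 7.28 and 15.9 percentage points in all settings tried, and none of its intervals reached 0. The control-only excess lay between 3.45 and 16.1 points, and its interval reached 0 only without Sox5 and Sox6 (-2.46 to 10.5). The Ngn3-OE-only difference changed sign between settings, from -5.93 points over 1 kb from start sites to 6.23 (0.362 to 12.3) with 50% overlap. Counts moved where a setting keeps fewer or more peaks or changes what counts as a partner. Keeping only peaks with −log10 q at or above 5 left 167 and 158 peaks, 47 control-only and 36 Ngn3-OE-only. These were 28.1% and 22.8%, against 18.3% and 23% of other peaks under the same limit. Of the 47 and 36, 18 and 13 had no partner at all and the others a partner below the limit. The SOX motif was in 36.2% of the control-only and the E-box in 11.1% of the Ngn3-OE-only peaks. Neither share was compared with other one-library peaks under this limit. A 50 kb flank left 15 lower pairs (19.5%, against 10.3% of other pairs). A 200 kb flank gave 422 and 421 peaks, 123 control-only (29.1%, against 21.7% of other peaks) and 116 Ngn3-OE-only (27.6%, against 26.6%). It gave 23 higher and 37 lower pairs (14.2% and 22.8%, against 17.8% and 10.2% of other pairs). With nearest start sites only, 9 pairs were higher. An overlap of 50% gave 122 control-only (45.0%, against 32% of other peaks) and 110 Ngn3-OE-only peaks (42.5%, against 36.2%). The 50000 strongest peaks gave 38 control-only (35.8%, against 19.8% of other peaks) and 20 Ngn3-OE-only peaks (22.5%, against 19.9%). Their log2 ratio was -0.93, against -0.37 in the main setting. Median scaling moved the summed ratio to -0.20. A sum of 40 tags left 4 higher and 10 lower pairs, and a fold of 2 left 2 and 12. Motif windows of 50 bp gave SOX shares of 11.5% (shared, against 4.15% of other shared peaks) and 11.2% (control-only) and E-box shares of 10.5% and 13.8%. Windows of 250 bp gave SOX shares of 26.7% (shared, against 16.8%), 36.2% and 17.7% (Ngn3-OE-only) and E-box shares of 36.6% and 37.5%. The remaining shares at these windows were not compared with other peaks. Without Sox5 and Sox6 there were 171 and 170 peaks, 43 control-only (25.1%, against 21.7% of other peaks), 39 Ngn3-OE-only (22.9%, against 26.6%) and 8 higher pairs. Of single genes, the summed ratio of Sox3 was 0.45 with a 50 kb flank. The main intervals of all 7 genes whose ratio changed sign include 0. Sox9 stayed between -0.52 and -0.29, with no interval reaching 0. With a 200 kb flank the interval of Sox2 lay below 0 (-0.38 to -0.040), as did those of Sox1 and Sox6 over 1 kb from start sites and of Sox8 with nearest start sites only, while that of Sox11 over 1 kb from start sites lay above 0, from 0.0015. Beyond the settings themselves, the causes were not tested. A pileup of 9 tags, the median, limits what a single pair can show: the Sox5 pair of 8 and 18 tags had an interval that reached -0.0075.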
